A study of Mus musculus with 8 samples.

Results

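The genes described here encode tetraspanins and TM4SF proteins, a list of 10 that holds Upk1a, Tm4sf4, Tm4sf5, Tspan1, Tspan6, Tspan8, Cd9, Cd63, Cd81 and Cd151. They were taken from the 53655 gene symbols of the count table. The list was chosen by the counts of Upk1a and Tm4sf4, which were high in Chat-pos tuft cells, and the other 8 genes were added because they belong to the same families. The values of Upk1a and Tm4sf4 are therefore a description with no test. All 10 were found in the table and all 10 passed the filter on low counts. For comparison, 26 further members of these families were taken by family membership whatever their values, which made 36 genes. RNA came from naïve Il25-RFP/+;Chat-GFP(Tg+) mice, in which a red reporter marks cells that make the cytokine IL-25 and a green transgene marks cells with an active Chat gene. CD45-negative, EPCAM-positive, RFP-positive tuft cells of the small intestine were sorted without (Chat-neg) or with (Chat-pos) green signal, 4 libraries of each. Both gates carry both reporters, so neither group is a wild-type control, and a reporter-negative cell need not lack Chat mRNA. No label ties a library to a mouse. A p-value here thus reflects variation among libraries, some of which may be technical.

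Tetraspanins are small membrane proteins that cross the membrane 4 times and bind integrins, proteases and immunoglobulin-type proteins sideways, which gathers them in membrane patches. TM4SF proteins cross the membrane equally often, but their sequences are unrelated to tetraspanins. In most epithelia these proteins sit at the basolateral and apical surface, and some, such as CD63, sit on late endosomes and secreted vesicles. UPK1A, uroplakin 1a, is the tetraspanin of the rigid plaques of the bladder lining, where it pairs with uroplakin 2. Tuft cells are chemosensory cells of the gut epithelium, and those with choline acetyltransferase, encoded by Chat, make acetylcholine.

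The DNA just upstream of Upk1a, Tm4sf4 and Tspan6 is shown because the first 2 gave rise to the list and Tspan6 was the only other gene of the 24 tested that was called higher in Chat-pos. Each run is the part of RefSeq's promoter window (GRCm38.p6, 250 bases before to 50 after the start) that lies upstream of the gene start in both RefSeq and GENCODE M21. It is written 5′ to 3′ on the gene's own strand, with matches to the E-box letters CANNTG, which basic helix-loop-helix factors bind, in capitals.
Upk1a: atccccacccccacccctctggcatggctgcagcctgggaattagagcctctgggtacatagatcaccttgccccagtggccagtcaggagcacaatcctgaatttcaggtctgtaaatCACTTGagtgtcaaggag
Tm4sf4: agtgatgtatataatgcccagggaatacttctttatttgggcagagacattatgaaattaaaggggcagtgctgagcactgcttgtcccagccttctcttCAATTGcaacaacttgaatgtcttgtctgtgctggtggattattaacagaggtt
Tspan6: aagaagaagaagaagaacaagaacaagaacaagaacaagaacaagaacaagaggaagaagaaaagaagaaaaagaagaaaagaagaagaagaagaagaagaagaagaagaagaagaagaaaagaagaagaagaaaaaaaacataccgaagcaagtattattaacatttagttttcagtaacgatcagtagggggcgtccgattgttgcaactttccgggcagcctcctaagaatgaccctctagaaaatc
The Upk1a run is chr7:30612848-30612984 on the minus strand, the Tm4sf4 run chr3:57425160-57425313 on the plus strand and the Tspan6 run chrX:133898430-133898679 on the minus strand. The runs of Upk1a and Tm4sf4 hold 1 E-box each. The Tspan6 run, which begins with a long purine-rich repeat, holds none. The full windows of 300 bases, which are longer than these runs, hold 1 for Upk1a, 2 for Tm4sf4 and 1 for Tspan6. The letters are in 72.3% of the 32851 full promoter windows of all genes, so this match is common. GC content was 54.7% for Upk1a, 41.6% for Tm4sf4 and 36% for Tspan6. The octamer ATGCAAAT, the letters bound by POU factors such as the tuft cell regulator POU2F3, was searched on both strands and was in none of the windows of these 3 genes. It was in 1.74% of all windows and in 2 of the 43 windows of the families, which belong to 33 genes. The 2 were windows of Tspan8 and Tspan13. In Tspan8 the match starts 195 bases before the RefSeq start, and in Tspan13 it starts 120 bases before. Matches of the octamer, the E-box and the 3 other motifs searched on both strands, which were the TATA box as TATAAA, the AP-1 site read as TGANTCA and the GATA site written AGATAA, did not overlap each other in the windows of the families. These are matches of letters, and nothing on binding was measured.

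Counts in named genes ran from 87642 to 1176880 in Chat-neg and from 1757401 to 2541955 in Chat-pos, so the groups did not overlap in depth. Chat-neg replicate 1 was the shallowest. Counts in rows without a gene name also separated the groups, at 67.8% to 88.4% of all counts in Chat-neg and 58.6% to 64.6% in Chat-pos, and their part in the differences was not tested. Chat itself stood at 117 ± 22.5 CPM in Chat-neg and 330 ± 34.1 CPM in Chat-pos (SD, n = 4), where CPM is counts per 1000000 scaled gene counts. All 15 tuft cell markers were detected and tested, and their summed level was 16486 to 27934 CPM in Chat-neg and 35320 to 39724 CPM in Chat-pos. Other cell types also left transcripts. The 9 Paneth cell markers summed to 61140 and 33083 CPM in Chat-pos replicates 2 and 3 and to 493 to 3556 CPM in the other 6 libraries. The 10 enterocyte markers ran from 21872 to 46106 CPM in Chat-neg and from 33676 to 54944 CPM in Chat-pos, and the 7 goblet cell markers from 512 to 5526 and from 306 to 1571 CPM. The 8 T cell markers summed to 162 to 341 CPM in Chat-neg and 3.37 to 271 CPM in Chat-pos, the 5 stem cell markers to 69.9 to 829.5 and 87.5 to 1043 CPM, and the 8 enteroendocrine markers to 582 to 1406 and 1216 to 1925 CPM. Sct gave most of the enteroendocrine sum, at 570 to 969 CPM in Chat-neg and 1206 to 1890 CPM in Chat-pos. Chgb was at 345 CPM in Chat-neg replicate 4 and at most 8.92 CPM in any other library. The 8 B cell and myeloid markers summed to at most 46.5 CPM and the 6 stromal and endothelial markers to at most 11.6 CPM in any library. No marker had 0 counts in all 8 libraries. In sorted bulk RNA of this kind, fewer cells of a type and less RNA per cell cannot be told apart.

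Upk1a was higher in each Chat-pos library than in any Chat-neg library. It stood at 46.5, 33.1, 25.9 and 28.9 CPM in Chat-neg replicates 1 to 4 and at 200.3, 163, 117 and 189 CPM in Chat-pos replicates 1 to 4. The highest Chat-neg library, replicate 1, rests on 4 counts, and the lowest Chat-pos library, replicate 3, on 247. The fitted log2 difference was 2.46 ± 0.25 (SE), a fold of 5.50, and it ran from 2.37 to 2.62 when each library was left out in turn. The gene (ENSMUSG00000006313.5) lies on chromosome 7 at 30603092 to 30612847 of GRCm38 and shares no exon with another annotated gene.

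Tm4sf4 was the most abundant transcript of both families in all 8 libraries and also differed without overlap. It stood at 1780, 2619, 3224 and 3811 CPM in Chat-neg replicates 1 to 4 and at 9344, 8114, 8165 and 10836 CPM in Chat-pos replicates 1 to 4. The fitted log2 difference was 1.67 ± 0.23 (SE), a fold of 3.18, with 1.52 to 1.87 when each library was left out. The gene took 0.175% to 0.389% of all gene counts in Chat-neg and 0.759% to 1.01% in Chat-pos. Per kilobase of exon it had ranks from 26 to 46 among 52731 genes in the Chat-neg libraries and from 9 to 15 in the Chat-pos libraries. Tm4sf4 (ENSMUSG00000027801.7) lies on chromosome 3 at 57425314 to 57441677.

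**Figure D1:**
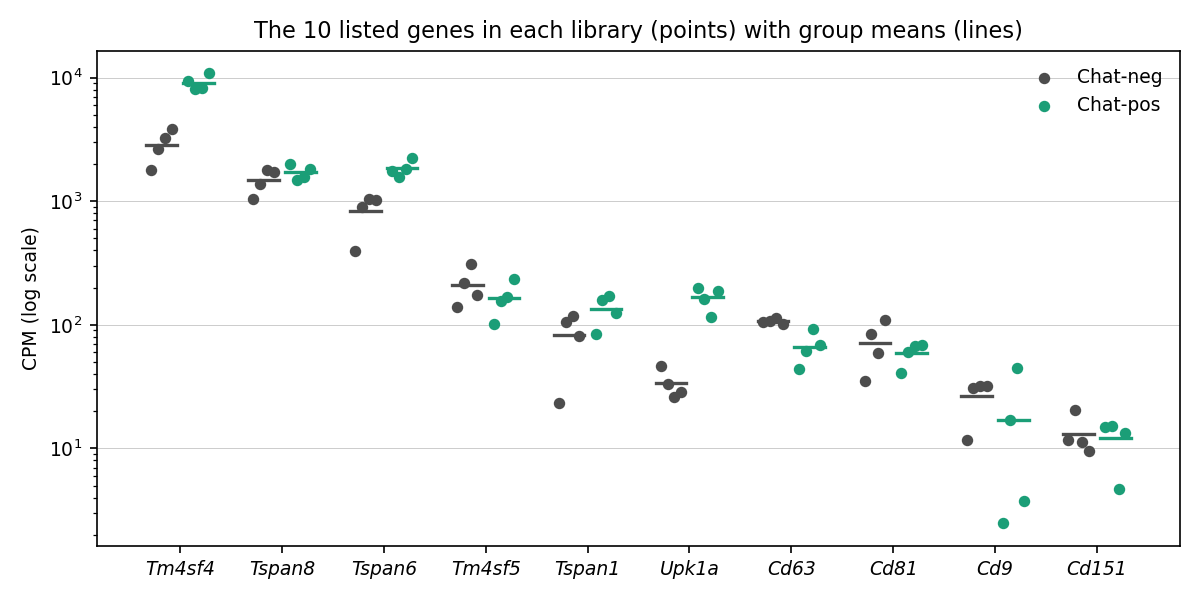
CPM on a log axis for each of the 10 listed genes, with 1 point per library, Chat-neg in grey and Chat-pos in green, and a line at each group mean (4 libraries per group). Upk1a, Tm4sf4 and Tspan6 separate upward without overlap, Cd63 separates downward, and the groups of the other 6 genes overlap.

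Levels of different genes were compared as CPM per kilobase of exon. In Chat-neg the order was Tm4sf4 (1911 ± 580), Tspan8 (874 ± 203), Tspan6 (406 ± 146), Tm4sf5 (187 ± 65.7), Tspan1 (35.3 ± 18.1), Cd63 (28.9 ± 1.37), Cd81 (25.0 ± 11.1), Upk1a (23.7 ± 6.41), Cd9 (13.0 ± 4.88) and Cd151 (4.82 ± 1.77) CPM per kilobase (SD, n = 4). Libraries of neighbours in that order overlapped for Tspan6 and Tm4sf5, for Tspan1, Cd63, Cd81 and Upk1a in turn, and for Cd9 and Cd151. In Chat-pos Upk1a had rank 5 of the 10, at 118 ± 26.1 CPM per kilobase, with its range overlapping that of Tm4sf5 above (147 ± 49.3) and separate from that of Tspan1 below (57.6 ± 16.6). Tm4sf4 stood at 6093 ± 856 CPM per kilobase there. Its share of the per-kilobase total of the 36 genes was 47.4% to 54.5% in Chat-neg and 68.3% to 70.7% in Chat-pos.

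Of the other 8 listed genes, 1 was called higher and 0 were called lower in Chat-pos at the threshold of 0.05 on edgeR's adjusted p. Of all 8919 tested genes, 6.49% were called, 3.62% higher and 2.87% lower. The median log2 difference of the 8 was -0.28, against -0.02 over all tested genes. At an unadjusted p under 0.05 in edgeR, which 10.9% of all tested genes reached as higher and 9.88% as lower, there was 1 lower gene among them, Cd63. DESeq2 and limma-voom each also called 1 higher and 0 lower.

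The gene called was Tspan6, a tetraspanin known as a brake on antiviral signalling. It stood at 396, 894, 1035 and 1024 CPM in Chat-neg replicates 1 to 4 and at 1744, 1559, 1832 and 2224 CPM in Chat-pos replicates 1 to 4. There was no overlap, and Chat-neg replicate 1 was low within its group. The log2 difference was 1.11 ± 0.24 (SE; edgeR adjusted p = 0.00495), a fold of 2.17. It was higher in 4 of 4 Chat-pos libraries and passed in all 17 alternative settings, with log2 differences from 0.92 to 1.33. Tspan6 (ENSMUSG00000067377.12) lies on chromosome X at 133891068 to 133898429.

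Tspan8, a surface tetraspanin of gut epithelium and its tumours, had rank 2 of the 10 per kilobase in both groups, overlapping with Tspan6 in Chat-pos, and did not pass. It stood at 1047, 1377, 1799 and 1725 CPM in Chat-neg and 2003, 1473, 1561 and 1818 CPM in Chat-pos, and the groups overlapped. Its log2 difference was 0.20, with a 95% interval from -0.24 to 0.63 (edgeR adjusted p = 0.662). That interval excludes a rise as large as the fitted values of Upk1a, Tm4sf4 or Tspan6. Reads from 4930422I22Rik, which overlaps an exon of Tspan8 on the other strand, could not be told apart in these libraries.

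Tm4sf5, the TM4SF relative of Tm4sf4 that is known from liver and gut, did not follow it. It stood at 139.6, 217, 311 and 175 CPM in Chat-neg and 101.4, 157, 168 and 236 CPM in Chat-pos, with overlap (log2 difference -0.40, 95% interval -0.92 to 0.11, edgeR adjusted p = 0.387). Tspan1, an epithelial tetraspanin, stood at 23.3, 106, 118 and 81.8 CPM in Chat-neg and 84.0, 158, 170.1 and 124 CPM in Chat-pos. The groups overlapped, and the log2 difference of 0.52 (95% interval -0.03 to 1.06) did not pass (edgeR adjusted p = 0.272).

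The tetraspanins found on most cell types were at lower levels than Tm4sf4, Tspan8 and Tspan6, and none passed. Cd63, the tetraspanin of late endosomes and secreted vesicles, stood at 104.7, 107, 113 and 101.1 CPM in Chat-neg and at 43.5, 61.4, 92.1 and 68.2 CPM in Chat-pos. All 4 Chat-pos libraries were below all 4 Chat-neg libraries, as in 5.42% of all tested genes, and the log2 difference was -0.68 ± 0.23 (SE, edgeR adjusted p = 0.0722). It passed in 3 of 17 alternative settings, with upper-quartile scaling (edgeR adjusted p = 0.0462), with total count scaling (0.0324) and without Chat-pos replicate 3 (0.0419). Cd81, known as a partner of the B cell receptor complex, stood at 34.9, 84.1, 59.6 and 109 CPM in Chat-neg and 40.4, 60.5, 67.6 and 68.6 CPM in Chat-pos (edgeR adjusted p = 0.412). Cd151, which binds laminin-binding integrins, rested on 1 to 16 counts per Chat-neg library and 10 to 34 per Chat-pos library, with means of 13.2 ± 4.86 and 12.1 ± 4.97 CPM. Its sign changed with the setting, and its 95% interval ran from -1.13 to 0.78 on the log2 scale (edgeR adjusted p = 0.886). Exons of Cd9, Cd81 and Cd151 overlap a gene on the other strand (Gm26728, R74862 and Gm10575), so their counts are less certain.

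Cd9, a tetraspanin known for its part in sperm-egg fusion, depended on which Chat-pos libraries were used. It stood at 11.6, 30.6, 31.9 and 32.1 CPM in Chat-neg and at 2.49, 17.0, 44.4 and 3.79 CPM in Chat-pos replicates 1 to 4, which spans the Chat-neg range on both sides. With all 8 libraries the log2 difference was -0.80 ± 0.88 (SE, edgeR adjusted p = 0.688). Without Chat-pos replicate 3 it was -1.87 (edgeR adjusted p = 0.0414), and without Chat-pos replicates 2 and 3 together -3.06 (edgeR adjusted p = 0.00118). Replicates 2 and 3 are the libraries rich in Paneth cell transcripts, but the Paneth sum was higher in replicate 2, where Cd9 was at 17.0 CPM, than in replicate 3. The summed stem cell markers stood at 97.0, 533, 1043 and 87.5 CPM in Chat-pos replicates 1 to 4 and at 104.7, 245, 69.9 and 829.5 CPM in Chat-neg replicates 1 to 4. In Chat-pos, Cd9 and the stem cell sum were both highest in replicate 3, next in replicate 2 and low in replicates 1 and 4. Olfm4 gave most of that sum in replicates 2 and 3, at 422 and 913 CPM, against 20.5 and 8.84 CPM in replicates 1 and 4. Lgr5 was at 54.1, 69.4, 63.3 and 46.3 CPM in Chat-pos replicates 1 to 4. The lower markers Ascl2, Smoc2 and Axin2 were highest in replicate 3. Within Chat-neg replicates 2 to 4, Cd9 was at 30.6 to 32.1 CPM and the stem cell sum at 69.9 to 829.5 CPM. The Paneth sum there ran from 781 to 3556 CPM. The part of Paneth or stem cells in the Cd9 values was not tested.

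**Figure D2:**
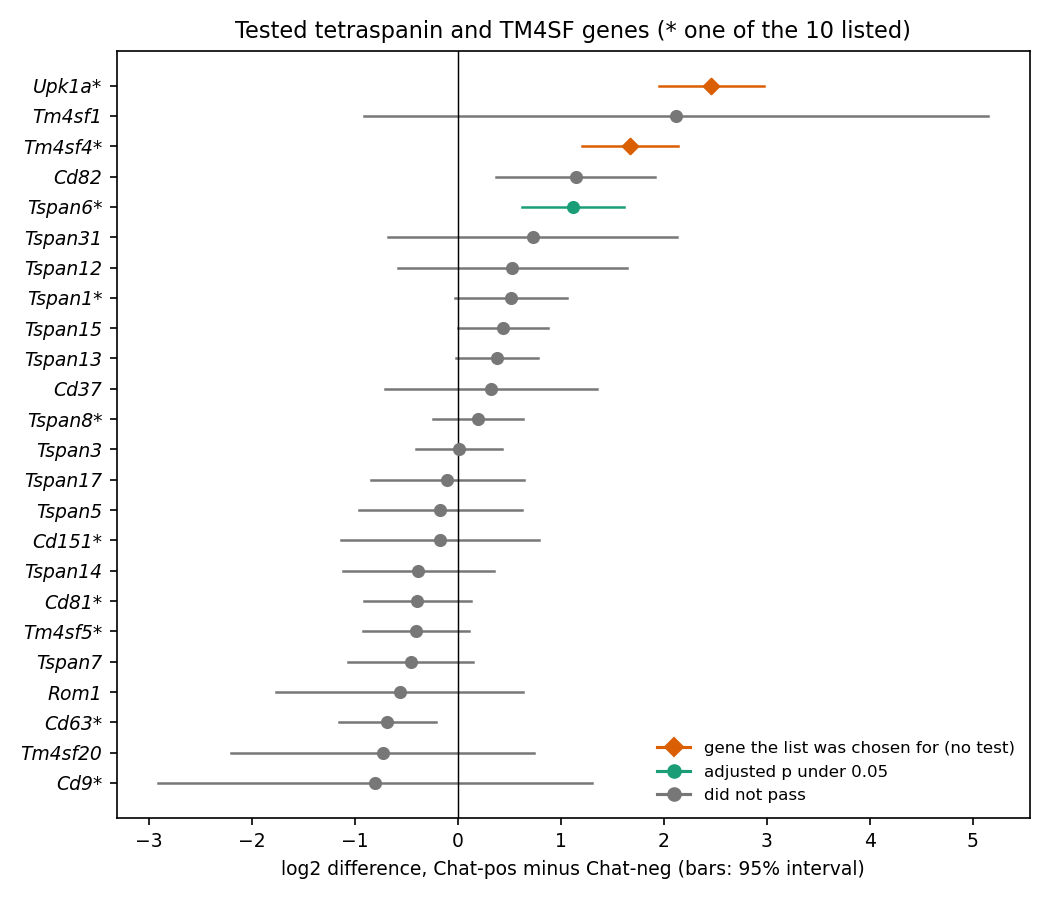
Fitted log2 difference, Chat-pos minus Chat-neg, for the 24 tetraspanin and TM4SF genes that were tested, with bars for the 95% interval. Diamonds mark Upk1a and Tm4sf4, which chose the list and have no test, and the green point marks Tspan6, the other gene that passed, at 1.11.

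Among the 26 family members outside the list, 14 were tested and none was called higher or lower by edgeR, DESeq2 or limma-voom. At an unadjusted p under 0.05, 2 were higher with edgeR, Cd82 and Tspan15, and 0 were lower, against 10.9% and 9.88% of all tested genes. Their median log2 difference was 0.17, with 8 above 0 and 6 below. Over all 36 genes, 24 were tested, 3 of these (Upk1a, Tm4sf4 and Tspan6) were called higher and 0 lower, and the median was 0.11. Since 2 of the 3 were the reason for the list, nothing is read from that count.

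Members of the TspanC8 group, which carry the protease ADAM10 to the surface, showed small differences. Tspan15 had 65.8 to 93.1 CPM in Chat-neg and 94.1 to 126 CPM in Chat-pos, without overlap, and 8.58% of all tested genes were higher in this way. Its log2 difference of 0.44 ± 0.21 (SE) did not pass (edgeR adjusted p = 0.238). Tspan14 (-0.38 ± 0.36), Tspan5 (-0.17 ± 0.39) and Tspan17 (-0.10 ± 0.36) overlapped between groups. Adam10 itself stood at 56.2 to 72.6 CPM in Chat-neg and 75.9 to 100.6 CPM in Chat-pos (log2 difference 0.44 ± 0.22, edgeR adjusted p = 0.254). Tspan10 and Tspan33, also of this group, had 5 and 6 counts over all 8 libraries and were not tested.

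Cd82, a tetraspanin known as a suppressor of metastasis, came closest to passing outside the list. It stood at 23.3, 16.6, 10.4 and 11.2 CPM in Chat-neg and 16.8, 36.3, 34.5 and 29.0 CPM in Chat-pos, so that 1 Chat-pos library lay within the Chat-neg range. Its log2 difference was 1.15 ± 0.38 (SE, edgeR adjusted p = 0.0657), and it passed without Chat-neg replicate 1 (edgeR adjusted p = 0.0497) and without Chat-pos replicate 1 (0.0311). Tspan13 had 156 to 203 CPM in Chat-neg and 211 to 249.98 CPM in Chat-pos, without overlap (0.38 ± 0.20, edgeR adjusted p = 0.271). Tspan3 stood at 121 ± 31.1 and 129 ± 15.2 CPM (SD, n = 4), and its sign changed with the scaling. Tspan7 (-0.46 ± 0.30), Tspan12 (0.53 ± 0.54) and Tspan31 (0.73 ± 0.63) did not pass, and the counts of Tspan12, Tspan31, Tspan15 and Cd37 could include reads of genes that overlap them. Rom1, a photoreceptor tetraspanin, was at 8.89 ± 7.84 and 7.31 ± 5.01 CPM.

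Tetraspanins of leukocytes were near the limit of detection. Cd37 stood at 34.9 CPM in Chat-neg replicate 1, from 3 counts, and at 6.37 to 13.5 CPM in the other 7 libraries. Its group means of 14.5 CPM in Chat-neg and 11.7 CPM in Chat-pos are in the opposite order to its fitted log2 difference of 0.32 ± 0.51. Cd53 had 36 counts in all, with 15 and 16 of them in Chat-pos replicates 2 and 4. Tspan2 and Tm4sf19 had 0 counts in all libraries, where 3 counts correspond to 1.26 CPM in the deepest library and 34.9 CPM in the shallowest. Upk1b, the tetraspanin that in bladder stands beside Upk1a, had 21 counts over all libraries and a highest level of 4.73 CPM.

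The TM4SF genes Tm4sf1 and Tm4sf20 varied widely between libraries of the same group. Tm4sf1, known as a surface antigen of endothelium and tumours, lies 123325 bases from Tm4sf4 on chromosome 3, with no protein-coding gene between them. It stood at 46.5, 15.3, 5.18 and 73.8 CPM in Chat-neg replicates 1 to 4 and at 156, 24.2, 30.2 and 309 CPM in Chat-pos replicates 1 to 4. Chat-pos replicates 1 and 4 were thus high and replicates 2 and 3 within the Chat-neg range, and the log2 difference of 2.12 ± 1.25 did not pass (edgeR adjusted p = 0.42). The 10 summed enterocyte markers stood at 21872, 35379, 36878 and 46106 CPM in Chat-neg replicates 1 to 4 and at 53593, 35579, 33676 and 54944 CPM in Chat-pos replicates 1 to 4, with Fabp1 giving most of each sum. That sum was thus also highest in Chat-pos replicates 1 and 4.

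Tm4sf20, a relative found in gut epithelium, stood at 198, 237, 287 and 180 CPM in Chat-neg and at 39.2, 69.9, 182 and 260.04 CPM in Chat-pos. Chat-pos replicates 1 and 2 were low, and the log2 difference of -0.73 ± 0.61 did not pass (edgeR adjusted p = 0.584). The enterocyte sum did not run with Tm4sf20, being high in Chat-pos replicate 1, where Tm4sf20 was lowest, and in replicate 4, where it was highest of the group. The part of enterocytes in the values of Tm4sf1 and Tm4sf20 was not tested.

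**Figure D3:**
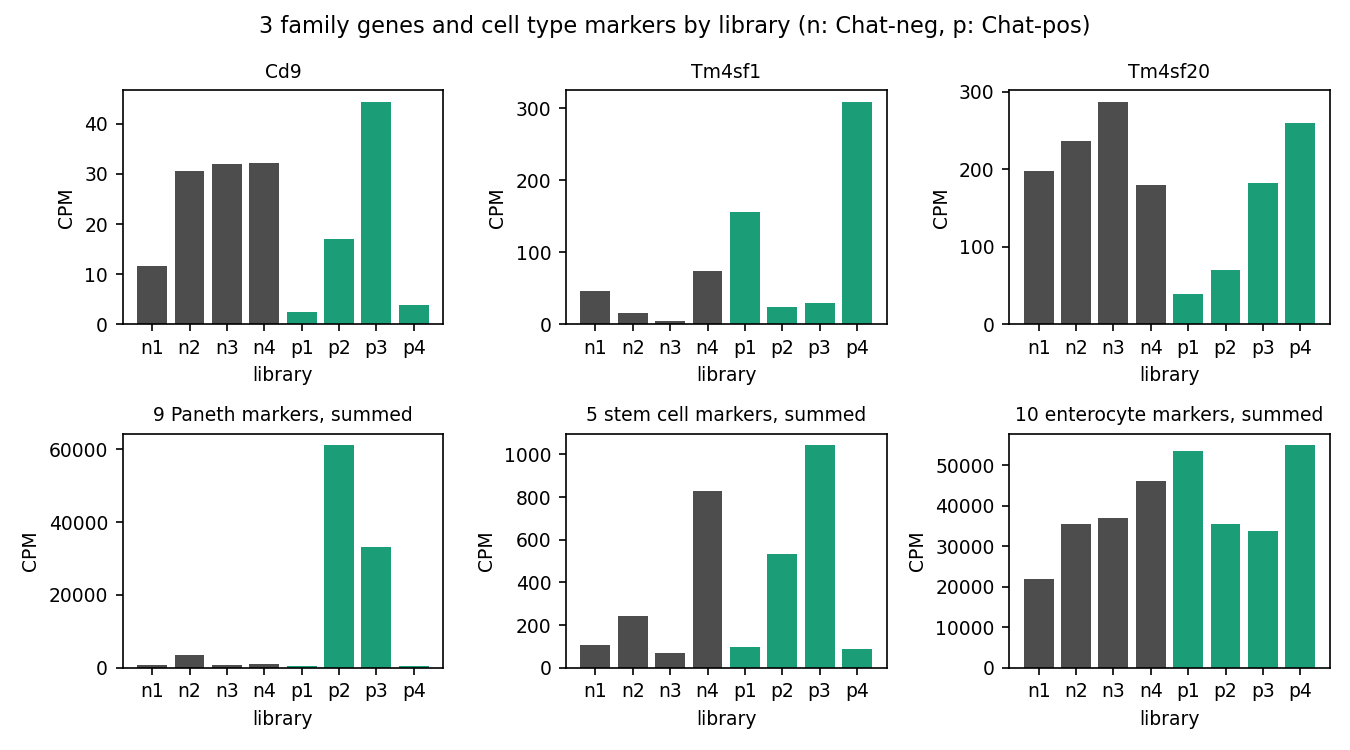
CPM on linear axes from 0 in each library (n1 to n4 Chat-neg, p1 to p4 Chat-pos) for Cd9, Tm4sf1 and Tm4sf20 above, and for the summed Paneth cell, stem cell and enterocyte markers below. Cd9 and the stem cell sum are both highest in p3 (44.4 and 1043 CPM), and the Paneth sum in p2 (61140 CPM). Olfm4 gives 913 CPM of the stem cell sum in p3. Tm4sf1 and the enterocyte sum are both highest in p4 (309 and 54944 CPM).

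The other uroplakins were all but absent. Upk2, Upk3a, Upk3b and Upk3bl had between 0 and 2 counts in each library and were not tested, so Upk1a counts of 247 to 448 in Chat-pos stood beside no more than 2 counts of its bladder partner Upk2. Among the 24 partner genes of the families, taken as integrins, proteases, syndecans, uroplakins and others known to bind them, 18 were tested. Hbegf, a growth factor precursor that binds CD9, was the 1 called lower (-0.91 ± 0.27, edgeR adjusted p = 0.04), and 0 were called higher by edgeR. Hbegf kept its call in 4 of 17 alternative settings, and it was lost without any 1 library other than Chat-neg replicate 1, with a log2 difference of -0.55 without Chat-neg replicate 4. Its edgeR, DESeq2 or limma-voom adjusted p ran from 0.0191 to 0.343 over the alternatives. At an unadjusted p under 0.05, 3 partners were higher with edgeR, Sdcbp, Sdc4 and Pdcd6ip, and 2 lower, Hbegf and Cd44, against 10.9% and 9.88% of all tested genes. The 1 call among 18 partners is near the 6.49% called over all tested genes. DESeq2 called 2 higher (Sdcbp and Sdc4) and 0 lower, and limma-voom 1 higher (Sdcbp) and 0 lower.

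None of the 4 syndecan and vesicle genes among the partners passed in edgeR, and they differed in sign. Sdcbp, which encodes syntenin, stood at 163 to 278 CPM in Chat-neg and 367 to 412 CPM in Chat-pos (0.63 ± 0.20, edgeR adjusted p = 0.0579), and the syndecan Sdc4 at 279 to 491 and 586 to 630.2 CPM (0.57 ± 0.21, edgeR adjusted p = 0.0915). The other syndecan, Sdc1, had a log2 difference of -0.91 ± 0.53 (edgeR adjusted p = 0.343), and Pdcd6ip, which encodes ALIX, had 0.47 ± 0.23 (edgeR adjusted p = 0.232). An exon of Sdcbp overlaps Nsmaf on the other strand. The integrins Itga2, Itga3, Itga6, Itgb1 and Itgb4 did not pass, with log2 differences from -0.42 (Itga6) to 0.36 (Itga2). Epcam and Cldn7, which bind TSPAN8 in epithelia, were abundant, with means of 1956 and 877 CPM in Chat-neg, but neither passed, at log2 differences of 0.38 ± 0.20 and 0.18 ± 0.20.

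Because summed tuft cell markers also differed between the gates, by 1.56-fold in their means, 5 listed genes were set against that sum. Upk1a stood at 2.82, 1.32, 0.927 and 1.14 CPM per 1000 CPM of tuft markers in the Chat-neg libraries and at 5.04, 4.53, 3.30 and 5.13 in the Chat-pos libraries, a ratio of means of 2.90. Tm4sf4 went from 119 ± 20.98 to 247 ± 32.4 (SD, n = 4), a ratio of 2.07, and Tspan6 from 34.2 ± 7.11 to 49.9 ± 8.08, a ratio of 1.46. On this scale a gene with equal CPM in both gates comes out lower in Chat-pos, because the divisor is higher there. Tspan8, whose CPM overlapped between groups, was at 40.9 to 50.4 in Chat-pos against 54.8 to 68.0 in Chat-neg. How many of all genes separate in this way was not computed, so nothing is read from that fall. Cd63 went from 4.66 ± 1.13 to 1.82 ± 0.62. For Tspan6 the ratio of means was 2.20 in CPM and 1.46 on this scale, where its nearest libraries were at 40.3 in Chat-neg and 43.3 in Chat-pos. The values of Upk1a and Tm4sf4 are again a description, since they chose the list. The list includes Il25 and Gnat3, which are themselves higher in Chat-pos.

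**Figure D4:**
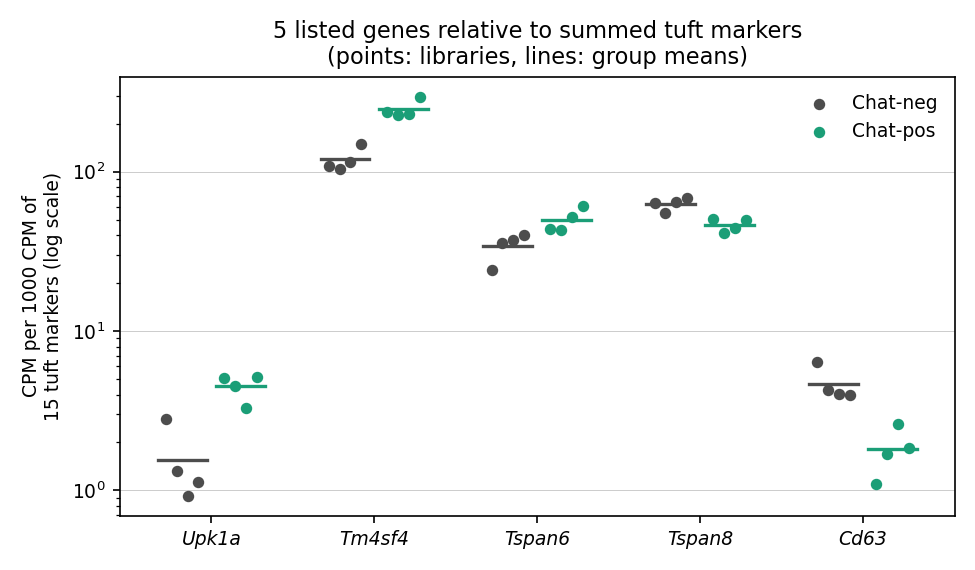
CPM per 1000 CPM of the 15 summed tuft cell markers, on a log axis, for 5 listed genes, with 1 point per library and a line at each group mean. Tspan6 averages 49.9 in Chat-pos against 34.2 in Chat-neg, and Tspan8 46.3 against 62.7. The divisor is higher in Chat-pos, so a gene with equal CPM in both gates falls on this scale. Upk1a and Tm4sf4 chose the list and are shown as a description.

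The genes most like Upk1a and Tm4sf4 in pattern were found by Pearson's r of log2 CPM over the 8 libraries leaving out genes whose mean was under 10 CPM. For Tm4sf4 these were 1810046K07Rik (r = 0.998), H2-D1 (0.995), Sucnr1, the succinate receptor (0.992), Trim38 (0.99) and Selenok (0.988). For Upk1a they were Nap1l1 (0.986), Phgr1 (0.974), Gnat3, the taste G protein gustducin (0.969), 4833423E24Rik (0.966) and Cabp1 (0.966). The libraries share 2 gates and the depth gap between them, so a gene that differs between gates tends to score high, and these values are a description. Nap1l1 shows that likeness ignores size: it stood at 42.3 to 46.5 CPM in Chat-neg and 52.0 to 59.1 CPM in Chat-pos, a log2 difference of 0.34 ± 0.24. Upk1a and Tm4sf4 had r = 0.87 with each other. In Chat-neg replicate 1, where Upk1a rests on 4 counts, Upk1a was the highest of its group and Tm4sf4 the lowest. Tspan6 had r = 0.951 with Tm4sf4 and 0.701 with Upk1a, and Cd63 had -0.772 and -0.871.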

How the data were processed

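Tuft cells were sorted into SMARTer v4 reagents for cDNA, and Nextera XT libraries had 74-cycle single reads, per the labels' protocols. The authors deposited 1 table of raw counts by gene symbol. Per the submitters' processing notes the genome build is GRCm38. How reads were aligned and counted is not given in the sources used here. Such libraries mark neither strand nor molecules.

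Of 53806 rows, 36 had no gene name. They held 67.8% to 88.4% of counts in Chat-neg and 58.6% to 64.6% in Chat-pos and were kept out of totals and tests. Rows sharing a symbol were summed. Counts were tested with edgeR 4.0.16 (R 4.3.3, TMM, filterByExpr, robust quasi-likelihood fit, group only, Benjamini-Hochberg over all 8919 tested genes, threshold 0.05). CPM divides by TMM-scaled totals of tested genes. Standard errors are the log2 difference divided by the root of F. Exon lengths and positions are from GENCODE M21. On simulated counts the fit was tested for recovery of known changes. No 2 libraries of a group agreed within sampling noise. Low counts limit precision most in Chat-neg replicate 1.

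The members and lists were chosen with earlier results of these data known. The text names the 10 members, all tested family genes, partner genes past the threshold, Chat, Epcam and the 5 genes most like Upk1a and Tm4sf4. Other genes were named after their values were seen. Alternatives were 3 other scalings, 2 filters, DESeq2 1.42.0, limma-voom (limma 3.58.1), a replicate block, and leaving out libraries.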

Additional observations from a re-analysis of the deposited data

Results flagged for a closer look

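Within groups of 4 libraries, 4 of the 48 group and gene combinations (24 tested family genes in 2 groups) held a library that stood far from the other 3, where chance gives about 1 in 20. Cd9 was at 11.6 CPM in Chat-neg replicate 1, from 1 count, below 30.6 to 32.1 CPM in the others. Cd37 was at 34.9 CPM in the same library, from 3 counts, above 6.37 to 8.63 CPM. Cd151 was at 4.73 CPM in Chat-pos replicate 3, from 10 counts, below 13.5 to 15.2 CPM. Tspan3 was at 152 CPM in Chat-pos replicate 3, from 321 counts, above 119 to 123 CPM.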

How the results depend on the processing

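Upk1a and Tm4sf4 were higher in Chat-pos in all 17 alternatives, with log2 differences from 2.34 to 2.79 and from 1.52 to 1.92, and Tspan6 passed in all 17. The count of family genes called higher was 3 to 4 throughout, but it includes Upk1a and Tm4sf4, which chose the list. Without these genes it was 1 to 2. The count called lower, 0 in the report, was 1 with upper-quartile scaling, 1 with total count scaling, 1 without Chat-pos replicates 2 and 3 together, and 0 to 2 over the fits that left out 1 library. Partner genes called higher, 0 in the report, were 1 with RLE scaling, upper-quartile scaling and limma-voom, 2 with DESeq2 and 0 to 1 with 1 library left out. The 1 partner called lower became 0 with no filter, the filter of 5 CPM in 4 libraries, DESeq2, limma-voom, the replicate block and without Chat-pos replicates 2 and 3 together, and 0 to 1 with 1 library left out. Over all genes, 138 to 360 were higher and 110 to 309 lower with 1 library left out, the lower end of both without Chat-neg replicate 2. The lower count was 143 with no filter and 86 without Chat-pos replicates 2 and 3. Total count scaling gave 225 higher and 380 lower against 323 and 256, and shifted the median log2 difference to -0.14. Without a filter that median was -0.34. The causes were not tested.

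The signs that reversed belong to genes near 0. Cd151 was at 0.022 with no filter, 0.17 without Chat-pos replicates 2 and 3 and -0.30 to 0.20 with 1 library left out. Tspan3 was at -0.021 with upper-quartile scaling, -0.10 with total counts, -0.046 with limma-voom and -0.046 to 0.17. Tspan5 was at 0.032 with no filter. Tspan17 was at 0.093 with no filter, 0.22 without Chat-pos replicates 2 and 3 and -0.22 to 0.082. No label pairs the libraries by replicate number. Deviations of same-numbered libraries from their group means correlated at 0.053, 0.033, -0.023 and -0.010. With 4 libraries per group and uneven depth, such correlations cannot decide whether the libraries are paired. With the replicate block, 290 genes were higher and 230 lower, and 4 family genes were higher, the fourth being Tm4sf1 (1.78, edgeR adjusted p = 0.000627). Depth limits low genes in Chat-neg replicate 1, where Tspan17, Tspan31 and Rom1 had 0 counts, Cd9, Cd151, Tspan12 and Tspan14 had 1, and Upk1a had 4.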
